A study of Homo sapiens with 6 samples.

Results

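JDP2 and 9 other genes of the AP-1 family (ATF3, ATF2, JUN, JUNB, JUND, FOS, FOSB, FOSL1 and FOSL2) were followed in RNA-seq of A549 cells in which the first intron of SFTPB was targeted by CRISPRi. JDP2 was chosen by its change in this comparison, so its values are a description and carry no test. The other 9 members were named for their place in the family, and all 10 are among the 26485 gene symbols of the count data. A549 is a human lung adenocarcinoma cell line. All cells of both groups stably expressed rat Nkx2-1 from the PGK promoter of a lentiviral vector, and dCas9-KRAB, in which the KRAB repressor domain is joined to a Cas9 that cannot cut DNA. Synthetic sgRNA #2, directed at intron 1 of SFTPB, was transiently transfected into 3 samples and a non-targeted control sgRNA into the other 3. The triplicates are described as biologically independent.

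AP-1 is a dimer of basic leucine zipper proteins. JUN, JUNB and JUND pair with each other or with FOS, FOSB, FOSL1 and FOSL2, and the dimers bind the sequence TGACTCA, the TPA response element. ATF2, ATF3 and JDP2 pair with JUN proteins and prefer TGACGTCA, the cyclic AMP response element. JUN, FOS, JUNB, FOSB and ATF3 are immediate early or stress-induced genes that respond to MAP kinases, whereas JDP2 (Jun dimerization protein 2) is best known as a repressor that competes for the same sites and recruits histone deacetylase activity. In airway and alveolar epithelium, AP-1 acts downstream of EGF receptor and stress signalling and drives genes of inflammation and wound repair.

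The libraries held between 6047554 and 7584611 reads counted on genes. SFTPB, the targeted gene, was at 427, 407 and 414 CPM (counts scaled by library size, with TMM factors, to a common total) in the control libraries and at 5.68, 6.30 and 8.15 in the sgRNA #2 libraries, in the order of replicates 1 to 3, and this order is kept below. The epithelial keratins KRT7, KRT8 and KRT18 were abundant, with means of 1372, 1772 and 564 CPM in the control group. EPCAM, a further epithelial marker, was much lower, with means of 8.39 CPM with control and 7.99 CPM with sgRNA #2. PTPRC, CD3E and DCN, which mark leukocytes, T cells and fibroblasts, had no count in any library, and the summed level of the 7 markers of other cell types was 68.9 to 75.0 CPM with control and 73.0 to 76.2 CPM with sgRNA #2, most of it from CD68. In a bulk sample, fewer cells of a type and less RNA per cell cannot be told apart.

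JDP2 was lower with sgRNA #2 than with the control. It lies at chr14:75427716-75474111 on the plus strand (GRCh38, GENCODE release 44), where the annotation places JDP2-AS1 on the opposite strand. The control libraries held 86, 154 and 113 JDP2 reads, or 13.7, 21.8 and 14.8 CPM (16.8 ± 4.39, SD, n = 3). The sgRNA #2 libraries held 62, 59 and 33 reads, or 8.80, 8.84 and 5.49 CPM (7.71 ± 1.93, SD, n = 3). All 3 sgRNA #2 libraries were below all 3 control libraries, where 15.6% of all tested genes had separate groups in either direction. The libraries of the same replicate number stood at 64.4%, 40.6% and 37.0% of their control. The log2 fold change was -1.11 (SE 0.204), a 2.16-fold lower level. This is just outside the 2-fold limit of the call used here. The whole call, which also needs an adjusted p under 0.05, was met downwards by 92 of 13356 tested genes (0.689%). JDP2 fell inside the 2-fold limit without control replicate 2 (-0.87) or without sgRNA #2 replicate 3 (-0.93).

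**Figure D1:**
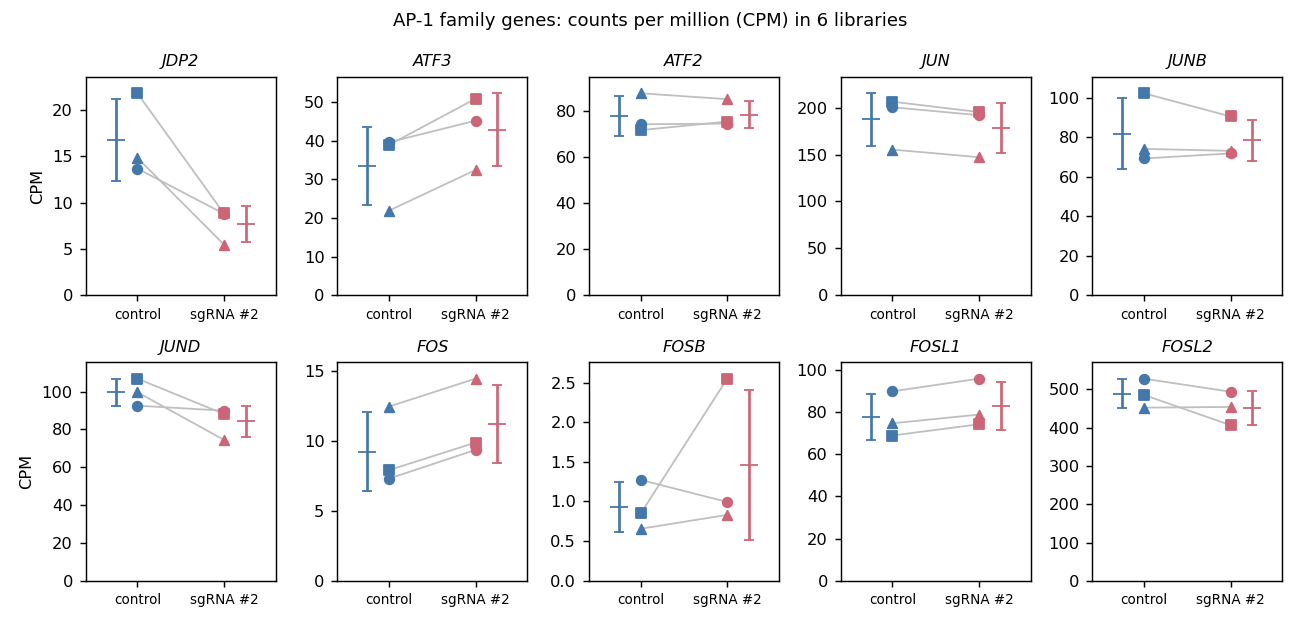
Each panel shows 1 AP-1 family gene, with TMM-scaled CPM on a linear axis from 0 for the 3 control libraries (blue) and the 3 sgRNA #2 libraries (red). Circles, squares and triangles are replicates 1, 2 and 3, grey lines join libraries of the same number, and the bars beside them give the mean ± SD. The groups are separate for JDP2 (13.7 to 21.8 against 5.49 to 8.84 CPM) and for JUND (92.5 to 107 against 74.5 to 89.9 CPM), and overlap for the other 8 genes. JDP2 was chosen by its change, and 15.6% of all tested genes had separate groups.

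The target of sgRNA #2 and the closest site listed for JDP2 by the off-target search of the study are shown because they bear on where dCas9-KRAB could lie near this gene. The target is at chr2:85668529-85668551 on the minus strand of GRCh38, in SFTPB, and the capitals mark its PAM. The second site is at chr14:75334183-75334205 on the minus strand, in no annotated gene, 93.5 kb before the JDP2 start and 52.0 kb past the end of FOS, and the capitals mark its mismatches.
sgRNA #2 target: gggatgggaggggaacacccAGG
site between FOS and JDP2: gAgatgggagTggaaGaAcccgg
Counted from 1 at the 5′ end of the guide, the 4 mismatches are G2A, G11T, C16G and C18A, so only the 2 bases next to the PAM match without a break. None of the 10 members had the last 8 or more bases of the guide followed by NGG within 1000 bp of an annotated start on either strand, against 197 of 13002 tested genes with an annotated start (1.52%). Binding of dCas9-KRAB was not measured in these libraries.

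The genes around JDP2 were examined because FOS and BATF, both of the same superfamily, are its neighbours on chromosome 14. Only genes of the count data with a matched position in the annotation were taken, so JDP2-AS1 is not among them. Of 27 such genes whose start lies within 1 Mb of that of JDP2, 22 were tested. Their log2 fold changes had a median of -0.02, with 11 below and 11 above 0. The range ran from -0.54 (SE 0.466) for PROX2, which had 3 to 19 reads per library, to 0.33 (SE 0.226) for ZC2HC1C. LTBP2, a matrix protein that binds fibrillin, was the 1 neighbour of 22 that passed the test, against 2.69% of all tested genes. It lay 815 kb before the JDP2 start and was at 30.4, 32.8 and 30.7 CPM with control and at 20.02, 22.6 and 22.4 CPM with sgRNA #2. Its log2 fold change was -0.53 (SE 0.105, edgeR adjusted p = 0.00735), and without sgRNA #2 replicate 1 it was -0.47 with an adjusted p of 0.0619. With the replicate number as a block, 3 neighbours passed, against 10.0% of all tested genes, the others being TMED10 (log2 fold change 0.13, edgeR adjusted p = 0.0435) and FLVCR2 (-0.35, edgeR adjusted p = 0.0478). FOS, the nearest tested gene before JDP2, had a log2 fold change of 0.26, and BATF had no count in any library.

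**Figure D2:**
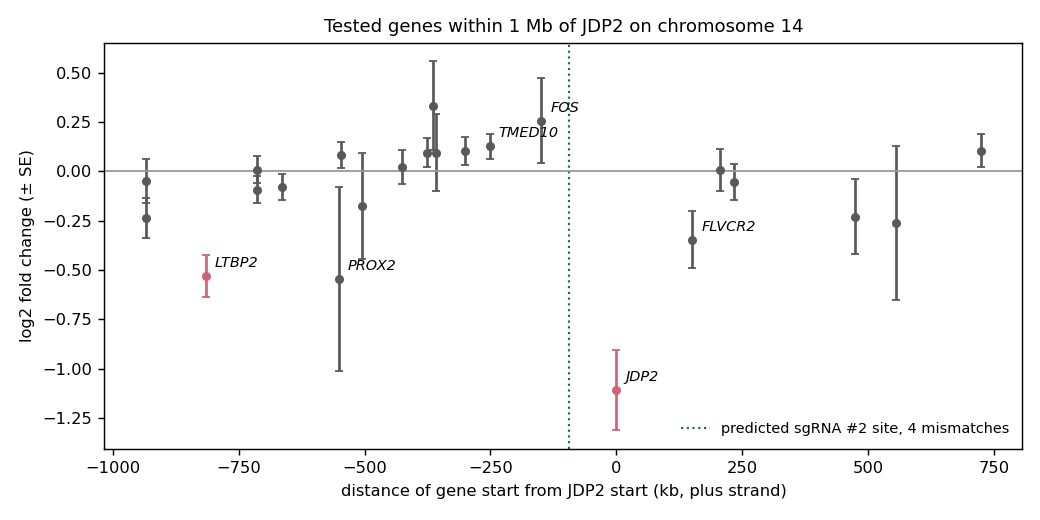
Log2 fold change (sgRNA #2 over control, ± SE) of the tested genes within 1 Mb of JDP2, against the distance of each gene start from that of JDP2 in kb. Red points had an edgeR adjusted p under 0.05 (JDP2 was chosen by its change), and the dotted line is the listed site with 4 mismatches, 93.5 kb before JDP2. JDP2 is the lowest point at -1.11, and the 22 neighbours run from -0.54 to 0.33.

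Of the ATF genes, ATF3 was higher with sgRNA #2 in every numbered pair and ATF2 had no common direction. ATF3, a stress-induced repressor and activator at the same sites, lies at chr1:212565334-212620777. It was at 39.6, 38.9 and 21.9 CPM with control (33.5 ± 10.0, SD, n = 3) and at 45.2, 50.8 and 32.4 CPM with sgRNA #2 (42.8 ± 9.42, SD, n = 3). The groups overlapped, since replicate 3 was low in both, but each sgRNA #2 library was above the control of its number, at 114%, 131% and 148%. The log2 fold change was 0.37 (SE 0.180), which did not pass edgeR's quasi-likelihood test over all genes (adjusted p = 0.462) and passed with the replicate number as a block (0.36, edgeR adjusted p = 3.85e-04). ATF2, which is phosphorylated by JNK and p38 and dimerizes with JUN, was at 74.2, 71.7 and 87.7 CPM with control and at 74.5, 75.4 and 85.1 CPM with sgRNA #2. The ranges of ATF2 nearly coincided, and its log2 fold change was 0.00 (SE 0.0866, edgeR adjusted p = 0.994).

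Per kilobase of exon, JDP2 was a minor part of the sum of JDP2, ATF3 and ATF2, making up 10.9% ± 2.46 with control and 4.78% ± 0.964 with sgRNA #2 (SD, n = 3). ATF3 made up 33.7% ± 8.71 and 41.6% ± 6.63, and ATF2 55.4% ± 9.31 and 53.6% ± 7.54. The sum itself was 24.6 ± 1.34 and 25.6 ± 1.73 RPKM, which is CPM divided by the exon length in kilobases.

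Among the Jun genes, JUND had separate groups and JUN and JUNB did not. JUND, the Jun protein present in resting cells, lies at chr19:18279694-18281622. It was at 92.5, 107 and 99.6 CPM with control (99.6 ± 7.14, SD, n = 3) and at 89.9, 88.1 and 74.5 CPM with sgRNA #2 (84.2 ± 8.43, SD, n = 3). Every sgRNA #2 library was below every control library, but the nearest values of the 2 groups were 89.9 and 92.5 CPM. The log2 fold change was -0.24 (SE 0.0820), which did not pass over all genes (edgeR adjusted p = 0.184). It passed with the replicate block (-0.24, edgeR adjusted p = 5.39e-04). An exact two-sided permutation test of JUND gave p = 0.10, the smallest value that 3 against 3 libraries can give, and 15.6% of all tested genes had groups that did not overlap.

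JUN, the founding member and the strongest activator of the group, was at 200.3, 206 and 155 CPM with control and at 192, 195 and 147 CPM with sgRNA #2. Replicate 3 was the lowest in both groups, and each sgRNA #2 library stood at 94.6% to 95.8% of its control. The log2 fold change of JUN was -0.07 (SE 0.107, edgeR adjusted p = 0.893), and with the replicate block the adjusted p was 0.417. JUNB, which moderates JUN and rises with growth factors, was at 69.3, 102 and 74.2 CPM with control and at 71.8, 90.6 and 73.2 CPM with sgRNA #2. Replicate 2 was the highest in both groups, and the log2 fold change of JUNB was -0.06 (SE 0.121, edgeR adjusted p = 0.917). HOOK2 overlaps JUNB on the opposite strand, and the strand setting of the counting is not given in the sources used here.

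None of the 3 tested Fos genes passed in edgeR or in DESeq2. Only 2.69% of all tested genes passed in edgeR and 302 of 13356 in DESeq2, so 0 of 3 says little. Of the 3, 0 had an unadjusted edgeR p under 0.05, for which the share of all tested genes is not given here. FOSL2 (FRA2), the most abundant member, was at 528, 486 and 453 CPM with control and at 494, 407 and 454 CPM with sgRNA #2. Its groups overlapped, and the log2 fold change was -0.11 (SE 0.0774, edgeR adjusted p = 0.672, or 0.0616 with the replicate block). FOSL1 (FRA1), a target of the RAS pathway in carcinoma cells, was at 89.8, 68.9 and 74.7 CPM with control and at 95.8, 74.2 and 78.8 CPM with sgRNA #2. Each sgRNA #2 library of FOSL1 was at 106% to 108% of its control, with a log2 fold change of 0.10 (SE 0.103, edgeR adjusted p = 0.822). FOS, the prototype immediate early gene, was at 7.31, 7.92 and 12.5 CPM with control and at 9.37, 9.89 and 14.5 CPM with sgRNA #2. Replicate 3 of FOS was the highest in both groups, each sgRNA #2 library was above its control, and the log2 fold change was 0.26 (SE 0.214, edgeR adjusted p = 0.755).

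FOSB was close to the floor of detection. It had 8, 6 and 5 reads with control and 7, 17 and 5 reads with sgRNA #2, where a floor of 3 reads stands for 0.396 to 0.496 CPM and covers counting error only. It did not pass the count minimum of 10 reads in 3 libraries, and without that filter its log2 fold change was 0.68 (SE 0.468, edgeR adjusted p = 0.752). FOSB overlaps ERCC1, and FOSL2 overlaps FOSL2-AS1, on the opposite strand.

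In sum, JDP2 was chosen by its change, and of the other 8 tested members 0 passed an adjusted p under 0.05 in edgeR, where 359 of 13356 genes did so (2.69%). DESeq2 also passed 0 of the 8, where 302 of 13356 genes did so. At shares this low, a count of 0 among 8 says little about the members. JUND was the 1 of the 8 with an unadjusted edgeR p under 0.05, a limit for which the share of all tested genes is not given here. The median log2 fold change of all 9 tested members, JDP2 included, was -0.06, against 0.00 over all tested genes. This median is not free of the choice of JDP2 by its change. Of the 8, 5 had the same direction in all 3 numbered pairs, with JUN and JUND lower and ATF3, FOS and FOSL1 higher, against 39.6% of all tested genes. With the replicate block, 2 of the 8 passed (ATF3 and JUND), where 1339 of all genes did so (10.0%).

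**Figure D3:**
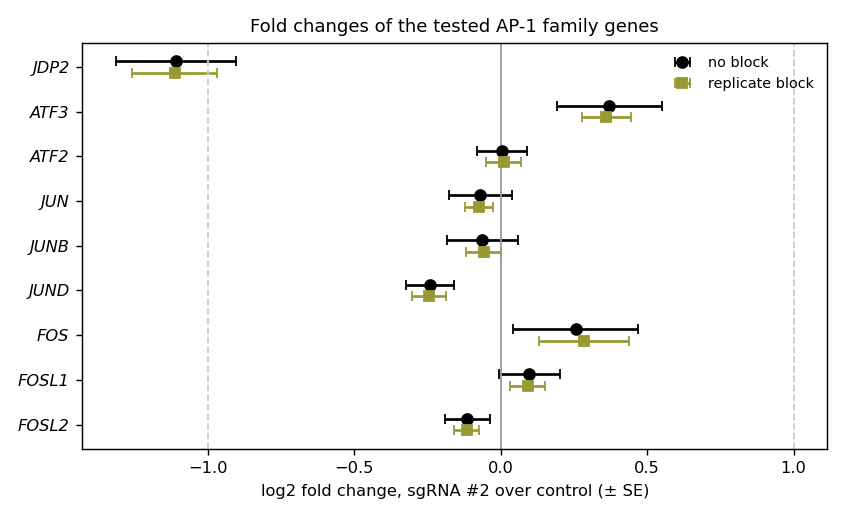
Log2 fold change (sgRNA #2 over control, ± SE) of the 9 tested AP-1 family genes from edgeR, without (black circles) and with the replicate number as a block (olive squares). Dashed lines mark a 2-fold change. JDP2 lies past the lower line at -1.11 in both fits, and the other 8 genes lie between -0.24 and 0.37.

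The order of the members by level was compared per kilobase of exon. In the control group FOSL2 was the highest at 68.2 ± 5.30 RPKM (SD, n = 3), and its libraries lay above those of every other member. JUN (51.7 ± 7.69), JUND (51.7 ± 3.70), JUNB (44.8 ± 9.72) and FOSL1 (41.2 ± 5.73) followed, and the range of each, JUN excepted, overlapped that of the gene above it. ATF2 (13.5 ± 1.49) and ATF3 (8.37 ± 2.50) were each separate from their neighbours in the order. FOS (2.90 ± 0.884) and JDP2 (2.68 ± 0.701) overlapped, and FOSB was the lowest at 0.167 ± 0.0567 RPKM.

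With sgRNA #2 the same genes held the first and the last places. FOSL2 was at 63.1 ± 6.10 RPKM, and JUN (49.1 ± 7.40), FOSL1 (43.96 ± 6.04), JUND (43.6 ± 4.37) and JUNB (42.9 ± 5.70) each overlapped the gene above, JUN excepted. ATF2 was at 13.6 ± 1.02 and ATF3 at 10.7 ± 2.36 RPKM. FOS (3.53 ± 0.880) and JDP2 (1.23 ± 0.308) no longer overlapped. Within the Fos genes, FOSL2 made up 60.7% ± 2.34 of the summed RPKM with control and 56.9% ± 0.797 with sgRNA #2, and FOSL1 36.5% ± 2.19 and 39.6% ± 1.67. JUND made up 35.1% ± 2.82 and 32.2% ± 1.46 of the summed RPKM of the Jun genes.

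Because AP-1 and ATF proteins bind at promoters of their own genes, their binding sequences were sought in RefSeq promoter windows (GRCh38.p14, 250 bases before to 50 bases after a start), of which 11 were present for 8 of the 10 members. The motifs were searched on both strands. TGACTCA stood in 4.95% of all 35116 windows and in that of FOSL2. TGACGTCA stood in 1.85% and in that of JUND, and TGACATCA, the form known from JUN, in 2.61% and in windows of JUN and ATF3. The ATF3 match lay before a start at 212565407, which is not the start of its canonical transcript (212608761). TGACGTC, the first 7 bases of TGACGTCA and so also counted within it, stood in 3.45% and in windows of JDP2 and JUND. The JUND window held a further match of the 7-base motif, 88 bases before the start. For each of the 5 genes, 1 match is given in capitals with 10 bases on each side, on the strand of the gene.
JUN, chr1:58784097-58784124, minus strand: ggccttggggTGACATCAtgggctattt
ATF3, chr1:212565274-212565301, plus strand: acctatgataTGACATCAtatggccact
FOSL2, chr2:28392852-28392878, plus strand: gccattgtagTGACTCAtctcgggcag
JUND, chr19:18281805-18281832, minus strand: gccgcccccaTGACGTCAacccacaagg
JDP2, chr14:75427915-75427941, plus strand: cgtccccctcTGACGTCtggagctggc
The JDP2 match began 97 bases before the start at 75428022, which is the start of its canonical transcript. The 250 bases before that start, at chr14:75427772-75428021 and with the match in capitals, are given because JDP2 was the member with the lowest fold change.
JDP2 promoter: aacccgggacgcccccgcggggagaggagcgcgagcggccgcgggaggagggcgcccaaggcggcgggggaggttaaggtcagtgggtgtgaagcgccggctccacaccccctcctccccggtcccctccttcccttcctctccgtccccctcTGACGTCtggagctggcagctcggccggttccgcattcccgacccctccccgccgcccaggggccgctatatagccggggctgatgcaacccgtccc
These bases had a GC content of 73.6%. A match describes the letters only, and binding at these windows was not measured here.

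Genes that act with AP-1 or downstream of it were counted from 6 lists of 105 tested genes in all, of which 8 rose and 4 fell at an adjusted p under 0.05. Over all tested genes 62 rose (0.464%) and 297 fell (2.22%). The lists were chosen with earlier results of these data known, so these counts are a description and do not test the lists. Among 22 tested basic leucine zipper relatives, MAFG, a small MAF protein that pairs with NRF2 and with AP-1 proteins, was the 1 that changed. MAFG was at 262, 259 and 262 CPM with control and at 169, 147 and 166 CPM with sgRNA #2, with a log2 fold change of -0.70 (SE 0.0671, edgeR adjusted p = 3.43e-06). Its annotated gene overlaps SIRT7 on the same strand. The median of this list was 0.06, and NFE2L1 (0.00), ATF4 (0.16) and NFE2L2 (0.07), its other abundant members, did not pass, with edgeR adjusted p from 0.332 to 1.00. With the replicate block, 7 of the 22 rose and 2 fell, against 3.97% and 6.06% of all tested genes. ATF4 was among those that rose (edgeR adjusted p = 0.00572). In the block fit edgeR's prior degrees of freedom were infinite, so its p-values rest on the trended dispersion alone.

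Among 25 tested MAP kinases and SRF or ELK factors, MAP2K2, which encodes the kinase MEK2, fell and the median was -0.03. MAP2K2 was at 53.7, 58.0 and 62.6 CPM with control and at 45.9, 43.6 and 41.9 CPM with sgRNA #2 (log2 fold change -0.41, SE 0.0867, edgeR adjusted p = 0.0123). RPS6KA3 (0.09) and MAP3K11 (-0.11), other abundant members of this list, did not pass. None of the 10 cofactors and ubiquitin ligases of AP-1 changed in edgeR, with or without the replicate block, or in DESeq2, and their median was 0.04. Over all tested genes 2.69% changed in edgeR, 10.0% with the block and 302 of 13356 in DESeq2, so 0 of 10 says little. Of the 10, 0 had an unadjusted edgeR p under 0.05, for which the share of all tested genes is not given here. CREBBP, EP300, MEN1 and ITCH had log2 fold changes of 0.03, 0.02, 0.11 and 0.04, and HDAC3, the deacetylase linked to JDP2, had 0.03.

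Of 21 tested immediate early genes, 4 rose and 1 fell, and the median was 0.14. EGR1, a zinc finger factor induced with FOS, had few reads, at 19, 20 and 21 with control and 39, 35 and 38 with sgRNA #2. Its log2 fold change was 0.99 (SE 0.229, edgeR adjusted p = 0.0229), and all 3 sgRNA #2 libraries were above the controls. PTGS2, the inducible prostaglandin synthase, was at 43.1, 42.1 and 46.5 CPM with control and at 74.5, 64.2 and 68.3 CPM with sgRNA #2 (0.65, SE 0.0849, edgeR adjusted p = 1.12e-04). DUSP6, a MAP kinase phosphatase, and NR4A1, a nuclear receptor, rose by 0.41 and 0.56 on the log2 scale (edgeR adjusted p = 0.00543 and 0.0172). IER5 fell, from 325, 341 and 283 CPM to 262, 264 and 233 CPM (-0.32, SE 0.0762, edgeR adjusted p = 0.0266). With the replicate block, 9 of the 21 rose and 4 fell, where 3.97% and 6.06% of all tested genes did so. PTGS2 and NR4A1 overlap the antisense RNAs PACERR and NR4A1AS.

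Of 19 tested AP-1 target genes, 3 rose and none fell in edgeR, and the median was 0.13. None was lower at an unadjusted edgeR p under 0.05, or in DESeq2, limits for which the share of all tested genes that were lower is not given here. CXCL8, the neutrophil chemokine interleukin 8, was at 34.8, 33.0 and 23.4 CPM with control and at 56.8, 71.4 and 47.9 CPM with sgRNA #2 (log2 fold change 0.96, SE 0.144, edgeR adjusted p = 5.50e-04). The EGF receptor ligand EREG was at 183, 113 and 133 CPM with control and at 297, 209 and 229 CPM with sgRNA #2 (0.78, SE 0.138, edgeR adjusted p = 0.00279). AREG, another EGF receptor ligand, was at 25.8, 18.5 and 25.5 CPM with control and at 40.9, 34.9 and 39.1 CPM with sgRNA #2 (0.72, SE 0.122, edgeR adjusted p = 0.00191). The most abundant target, CCND1 (cyclin D1), had a log2 fold change of -0.13 (SE 0.0895, edgeR adjusted p = 0.693, or 0.0355 with the replicate block). With the block, 8 of the 19 rose and 2 fell, against 3.97% and 6.06% of all tested genes.

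Of 8 stress response genes that share regulation by ATF4 and ATF3, TRIB3 rose, DDIT4 fell and the median was 0.22. TRIB3, a pseudokinase that binds ATF4, was at 160.2, 155 and 159 CPM with control and at 204, 203 and 170.3 CPM with sgRNA #2 (log2 fold change 0.28, SE 0.0735, edgeR adjusted p = 0.0463). DDIT4, an inhibitor of mTORC1, was at 330.0, 426 and 465 CPM with control and at 248, 298 and 339 CPM with sgRNA #2 (-0.47, SE 0.112, edgeR adjusted p = 0.0283). PPP1R15A and ASNS, the most abundant others, had log2 fold changes of 0.23 and 0.43 and did not pass without the replicate block (edgeR adjusted p = 0.361 and 0.196), but passed with it (0.00270 and 3.91e-07). With the block, 3 of the 8 rose and 1 fell, where 3.97% and 6.06% of all tested genes did so.

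Of the 12 changed genes of these lists, AREG, CXCL8, DUSP6, EREG, MAFG and PTGS2 passed whichever of the 6 libraries was left out. EGR1 passed in 2 of these 6 fits (highest edgeR adjusted p = 0.0874), as did IER5 (0.137) and DDIT4 (0.198), MAP2K2 in 4 (0.0793), NR4A1 in 4 (0.103) and TRIB3 in 1 (0.237). EGR1, IER5 and DDIT4 were lost without sgRNA #2 replicate 1 or control replicate 2, and also without sgRNA #2 replicate 3 or control replicate 3 (EGR1), sgRNA #2 replicate 3 or control replicate 1 (IER5), and sgRNA #2 replicate 2 or control replicate 3 (DDIT4). MAP2K2 was lost without replicate 3 of either group, NR4A1 without sgRNA #2 replicate 3 or control replicate 2, and TRIB3 without any library other than sgRNA #2 replicate 3. DESeq2 passed 9 of the 12, with EGR1 at an adjusted p of 0.112, EREG at 0.0978 and DDIT4 at 0.362. With the replicate block, 27 of the 105 genes rose and 10 fell, against 3.97% and 6.06% of all tested genes. None of the 12 had a guide match of 8 or more bases near a start. Only 1.52% of tested genes had such a match, so a count of 0 among 12 says little about them.

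**Figure D4:**
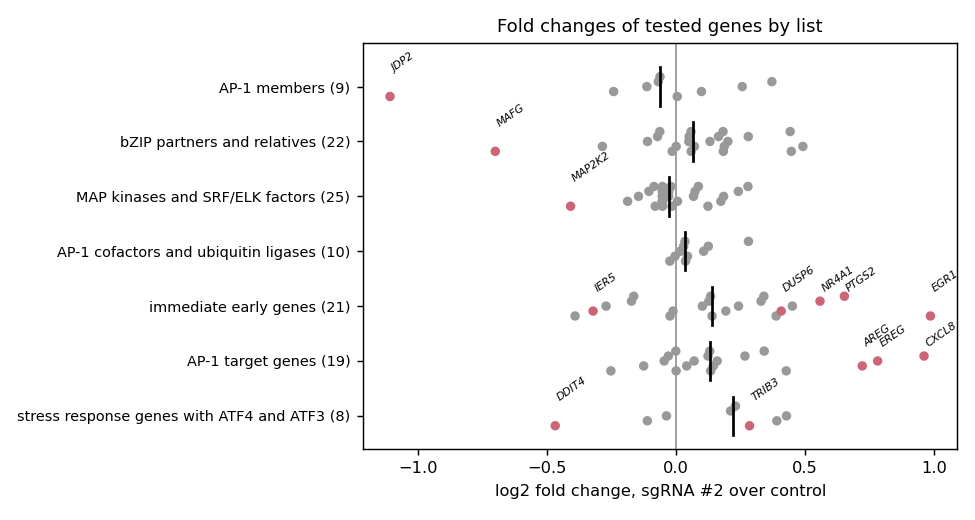
Log2 fold change (sgRNA #2 over control) of each tested gene, 1 point per gene, by list, with the number tested in brackets and a black bar at the list median. Red points with names had an edgeR adjusted p under 0.05. The named genes of the immediate early and AP-1 target lists lie at 0.41 to 0.99, apart from IER5 at -0.32. The medians of all lists lie between -0.06 (the family members, JDP2 included) and 0.22.

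**Figure D5:**
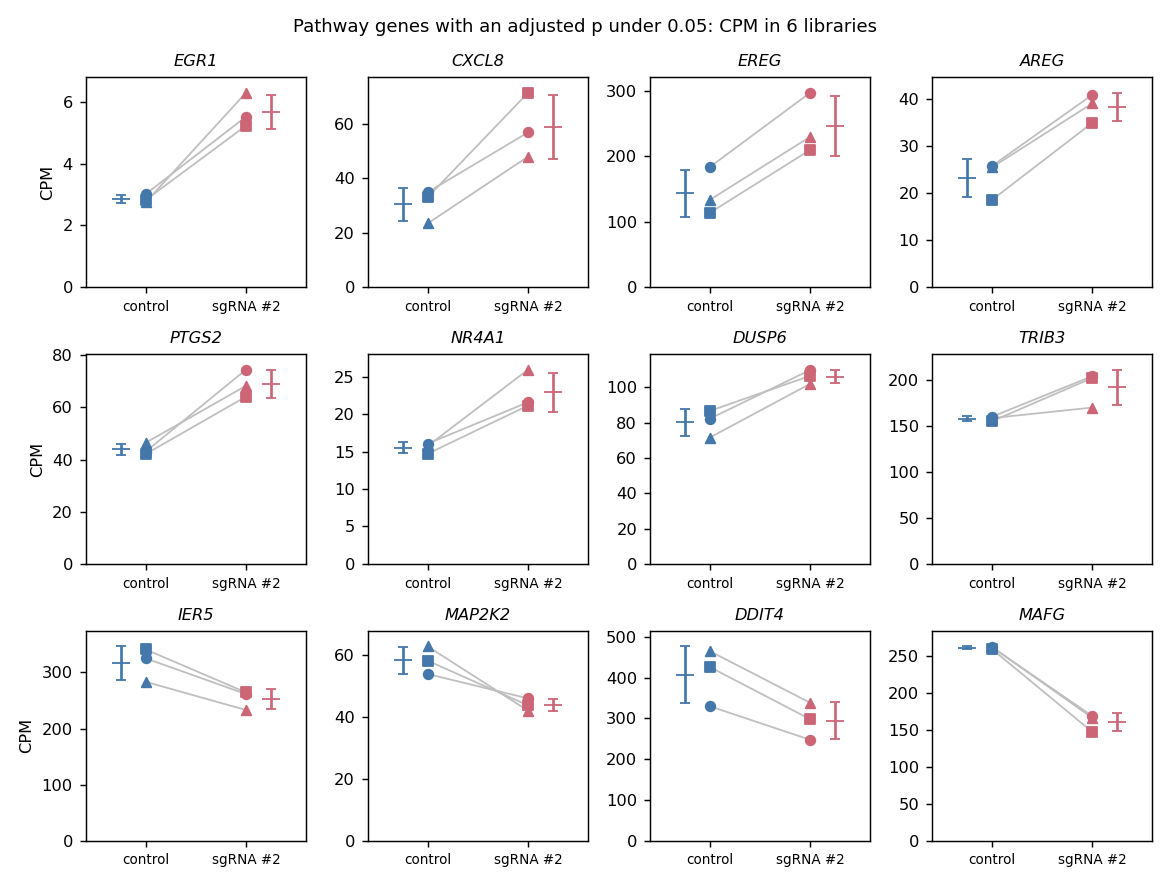
TMM-scaled CPM of the 12 changed genes of the AP-1 lists, on linear axes from 0, for the 3 control libraries (blue) and the 3 sgRNA #2 libraries (red), with symbols, lines and mean ± SD as for the family members. The 8 genes of the upper rows rose and the 4 of the bottom row fell, and the groups overlap only for DDIT4 (330.0 to 465 against 248 to 339 CPM). Over all tested genes 15.6% had groups that did not overlap, and these 12 were picked by their change.

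The genes whose pattern over the 6 libraries was most like that of JDP2 were named by the Pearson correlation of log2 CPM, as a description over libraries that share their group difference with it. MYO7A, an unconventional myosin, came first (r = 0.993), followed by PLBD2 (0.989), TSR3 (0.989), PDGFB (0.987), a platelet-derived growth factor chain, and CST3 (0.985), which encodes cystatin C. In all 5 the groups did not overlap, against 15.6% of all tested genes, but they were picked by likeness to JDP2, whose groups are separate. PDGFB had a log2 fold change of -1.91 from 17, 33 and 27 reads with control and 8, 9 and 2 reads with sgRNA #2. MYO7A (-0.27), PLBD2 (-0.32), TSR3 (-0.17) and CST3 (-0.29) did not pass, with edgeR adjusted p from 0.0523 to 0.617. Of the family, JUND was the most like JDP2 (r = 0.966, place 33 of the tested genes), and the others ran from -0.63 for FOS to 0.51 for JUN.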

How the data were processed

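RNA of A549 cells with stable dCas9-KRAB and rat Nkx2-1 was sequenced in 3 libraries with sgRNA #2 and 3 with the non-targeted sgRNA control, grouped and numbered by the sample labels. Raw read counts by gene symbol from htseq-count were deposited by the authors, 1 set per library. The submitters' processing notes name Trim Galore, FastQC, Bowtie2 2.3.3.1, SAMtools, Picard, HTSeq and hg38, without roles, and the annotation and strand setting are not given in the sources used here. Rows that name no gene (19.7 to 21.1% of reads outside genes, 2.61 to 2.75% ambiguous) were left out.

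The 13356 of 26485 genes that reached 10 counts in 3 or more libraries were tested with edgeR 4.0.16 in R 4.3.3 (TMM, quasi-likelihood test, Benjamini-Hochberg adjustment over all tested genes). A gene changed (rose or fell) at an adjusted p under 0.05, and was called where the change was also at least 2-fold. Alternatives were DESeq2 1.42.0, RLE size factors, total counts, other count filters, the replicate number as a block, and leaving out each library. On simulated counts for 13356 genes, 182 of 200 changed genes were recovered with 7 false ones. Libraries of 1 group differed by more than sampling noise (chi-square per degree of freedom 2.74 to 3.63).

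The replicate numbers in the labels were taken to pair the libraries, since deviations from group means correlated at 0.269, 0.287 and 0.291 for equal numbers and at -0.180 to -0.100 for unequal ones. With the block, and without a count filter, edgeR's prior degrees of freedom were infinite (13.0 otherwise), so those p-values rest on the trended dispersion alone.

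RPKM values used exon lengths and positions of GENCODE release 44, in which 22930 symbols were matched directly, 1348 through an older symbol, 270 to several genes and 1937 to none. Guide sequences came from the study's supplementary tables, and promoters from RefSeq.

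The members and gene lists were chosen with earlier results of these data known. Genes named were the members, SFTPB, the changed genes of each list and its most abundant ones up to 4, extremes of the neighbours of JDP2, and the 5 genes most like JDP2. HDAC3 and EPCAM were added after their values were seen. Part of what this rule names is not reported here.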

Additional observations from a re-analysis of the deposited data

How the results depend on the processing

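JDP2 was chosen by its change in these same libraries, so refits of them are no support for that change and describe its size only. Its log2 fold change kept its direction under every alternative run, from -1.23 to -0.87 over the left-out libraries. The count of members changed by at least 2-fold, JDP2 included, ran from 0 to 1. It was 0 without control replicate 2 or without sgRNA #2 replicate 3. The members with an adjusted p under 0.05, JDP2 included, numbered 2 with no count filter, where ATF3 was added (edgeR adjusted p = 0.0161). They numbered 3 with the replicate block, where ATF3 and JUND were added. The changed genes of the 6 lists numbered 12, but 23 with no count filter and 37 with the block, and the changed neighbours of JDP2 numbered 3 with the block and 0 to 1 over the left-out libraries. The block changed the call of no other family member. Over all genes, 359 changed, against 583 with no count filter and 1339 with the block, and 96 were called, against 63 with 10 counts required in every library. The cause of these shifts was not tested. Leaving out a library turned the sign for ATF2 (-0.055 to 0.10), JUN (-0.19 to 0.051), JUNB (-0.18 to 0.13) and FOSL1 (-0.017 to 0.21), none of which passed the test. With 6047554 to 7584611 reads per library, FOSB and 16 other listed genes were too low to be tested.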

Other observations

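Several classical AP-1 targets were at or near the floor of detection in these cells. The matrix metalloproteinases MMP1, MMP3, MMP10 and MMP13 averaged 2.5, 0.667, 0.5 and 3.17 reads per library and MMP9, a gelatinase, 7.17, and none was tested. SPRR1B, a squamous differentiation gene, had no count in any library. Of the zinc finger factors related to EGR1, EGR2 averaged 4 reads, EGR3 0.667 and EGR4 0.167. Among the fibroblast, endothelial and macrophage markers, COL1A1 was at 7.18 ± 1.51 CPM with control and 7.54 ± 1.40 CPM with sgRNA #2, PECAM1 averaged 1 read, and CD68, which many epithelial tumour cells also express, was at 64.8 ± 2.53 and 66.7 ± 1.55 CPM (SD, n = 3). CDH1, the epithelial cadherin, was lower with sgRNA #2 (238 ± 16.0 against 188 ± 5.07 CPM, log2 fold change -0.34, edgeR adjusted p = 0.00728), and the other 4 epithelial markers did not pass, though KRT8 did with the replicate block (edgeR adjusted p = 0.0234).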
